A study of Mus musculus with 2 samples.

Results

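The 10 genes described here carry out antigen presentation on MHC class I: the heavy chains H2-K1, H2-D1 and H2-Q7, the light chain B2m, the peptide transporter and loading genes Tap1, Tap2 and Tapbp, the proteasome subunits Psmb8 and Psmb9, and the regulator Nlrc5. They were taken by symbol from the 28692 genes listed in the count files, without a cutoff on their levels but with earlier results of these data known. Each symbol stood for 1 gene in the files. Their levels were followed across lineages, cell states and the libraries of GR-1+ cells, isolated with magnetic beads from mammary tumors of female BALB/c mice treated with anti-PD1. One library came from tumors of 4T1p, the unmutagenized form of the triple-negative carcinoma line 4T1, and the other from 4T1m, a polyclonal line made from it by exposure to the mutagen MNNG, so that all cells came from treated animals and no untreated library is analysed here. The sources used here do not state how many mice each library held.

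MHC class I molecules display short peptides from proteins made inside a cell, so that CD8+ T cells can inspect nearly every nucleated cell of the body. Peptides are cut by the proteasome, whose standard catalytic subunits are exchanged for interferon-induced ones in the immunoproteasome, and are carried into the endoplasmic reticulum by the transporter TAP. There tapasin and calreticulin load them onto a heavy chain paired with beta-2 microglobulin, and the complete molecule travels to the cell surface. Interferons raise the transcription of most of these genes, and NLRC5 acts as the class I transactivator on a conserved promoter module. Neutrophils, monocytes and macrophages all express the pathway, so none of the cell types sampled serves as a negative reference.

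Of the 10 genes, 8 lay within the MHC region of chromosome 17 in the GENCODE vM21 annotation of GRCm38, the build of the count files. The heavy chain genes were H2-K1 (chr17:33996017-34000347, minus strand), H2-D1 (chr17:35262730-35267499, plus strand) and H2-Q7 (chr17:35439155-35443773, plus strand). Between them, in the class II part of the region, lay Psmb9 (chr17:34181987-34187764, minus strand), Tap1 (chr17:34187553-34197225, plus strand), Psmb8 (chr17:34197721-34201454, plus strand) and Tap2 (chr17:34203527-34216321, plus strand), with Tapbp (chr17:33915899-33929292, plus strand) at the outer edge. B2m (chr2:122147686-122153083, plus strand) and Nlrc5 (chr8:94434356-94527272, plus strand) lay on other chromosomes.

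The promoters of the heavy chain genes and of B2m are shown because they carry the module on which NLRC5 acts, and because these 4 genes are compared below between cell states that differ in interferon-stimulated genes. RefSeq promoter windows of GRCm38.p6, from 250 bases before to 50 bases after the start of transcription, were found for 8 of the 10 genes, with none used here for Tap2 and Nlrc5. Capitals mark matches, which describe the letters and are not shown binding sites: GGGATTCCC (an NF-kB type site), TTTCNNTTC and a repeat of GAAA with any 2 bases between its copies (interferon-stimulated response elements), and TGACG followed on the same strand after 15 to 25 bases by ATTGG (the X2 and Y boxes).
H2-K1, chr17:34000348-34000469, minus strand: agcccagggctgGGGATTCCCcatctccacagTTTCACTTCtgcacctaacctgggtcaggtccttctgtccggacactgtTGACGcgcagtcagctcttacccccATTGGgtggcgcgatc
H2-D1, chr17:35262912-35263034, plus strand: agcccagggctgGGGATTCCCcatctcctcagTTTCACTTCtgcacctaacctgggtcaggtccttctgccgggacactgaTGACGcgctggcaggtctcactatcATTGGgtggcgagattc
H2-Q7, chr17:35439011-35439131, plus strand: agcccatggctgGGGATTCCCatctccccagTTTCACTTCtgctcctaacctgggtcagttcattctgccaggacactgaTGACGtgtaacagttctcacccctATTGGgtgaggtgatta
B2m, chr2:122147536-122147650, plus strand: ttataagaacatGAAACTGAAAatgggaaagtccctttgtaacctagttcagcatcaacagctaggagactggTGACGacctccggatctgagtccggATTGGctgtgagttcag
The X2 and Y boxes stood 20 bases apart in H2-K1, H2-D1 and B2m and 19 bases apart in H2-Q7. This arrangement was found on either strand in 143 of 32851 promoter windows (0.435%), GGGATTCCC in 116 windows (0.353%), TTTCNNTTC in 2469 (7.52%) and the GAAA repeat in 1131 (3.44%). TTCNNNGAA (a gamma-activated site), also searched on both strands, was in 2726 windows (8.30%), among them that of Psmb8, and the windows of Tap1, Psmb9 and Tapbp held none of these matches. The 3 heavy chain genes thus shared the same elements in the same order, with H2-Q7 differing in spacing, while B2m held the repeat and the X2 and Y boxes without the NF-kB type site.

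The windows of Tap1 and Psmb9 overlapped by 275 bases on opposite strands, and the stretch between their RefSeq starts is shown because the genes are read outward from it. Capitals mark CCAAT (the Y box read on the other strand) and TGACG, which did not stand in the X2 and Y arrangement.
Tap1 and Psmb9, chr17:34187331-34187555, plus strand: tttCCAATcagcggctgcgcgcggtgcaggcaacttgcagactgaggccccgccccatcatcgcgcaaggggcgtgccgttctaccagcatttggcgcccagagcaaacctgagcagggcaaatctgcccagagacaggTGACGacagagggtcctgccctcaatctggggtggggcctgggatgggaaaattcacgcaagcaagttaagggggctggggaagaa
The levels of this divergent pair over 20 groups made of 1 cluster and 1 library correlated with Pearson r = 0.57, a description across groups that share libraries and depth, against r = 0.86 for Psmb8 and Psmb9 and r = 0.90 for H2-K1 and B2m.

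Under the 4T1p label the files listed 1641 barcodes with 9021132 UMIs in all and a median of 2066, and under the 4T1m label 2749 barcodes with 14840190 UMIs and a median of 2763, and 0 barcodes were in common. In the paper's methods these medians are given the other way round, so the libraries are named by the labels of the files, on which every direction between tumors rests. A barcode was kept when it showed 250 to 5000 genes, no more than 27000 UMIs and a share of mt- UMIs up to 12.5%, which left 1128 and 2092 cells. Clustering without the class I genes gave 6 monocytic-like clusters (1883 cells, with markers such as Csf1r and C1qa), 4 granulocytic-like clusters (1273 cells, with S100a8 and Csf3r) and 1 lymphoid-like cluster (64 cells), which held both B cell and T cell markers. Median UMI counts were 1601 and 3701 for monocytic-like cells (4T1p and 4T1m labels in turn) and 2717 and 2482 for granulocytic-like cells. No carcinoma or fibroblast marker reached 25% of the cells of a cluster, while 1 of 4 endothelial markers did in clusters 4 (27.7%) and 10 (35.9%), and 1 of 5 dendritic cell markers in cluster 10 (70.3%). The markers of 4T1 carcinoma cells were seen in at most 3.48% of the cells of any cluster.

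Each level below is the summed UMI count of a gene in a group of cells divided by all UMIs of the group and scaled to 1000000 (CPM), with an exact Poisson 95% interval, and each log2 ratio of CPM has a 95% interval derived from an exact binomial interval on how the counts split. With 1 library per condition there was no replicate error and no test, and all intervals cover counting error only. A 2-fold ratio (log2 of 1 or more in size) was used to count genes, beside the share of all genes with at least 200 UMIs in the compared groups that passed the same fold. Of the members, 10 met that minimum between the libraries in monocytic-like cells, 8 in granulocytic-like cells (not Tap2 and Nlrc5) and 9 between the lineages in each library (not Nlrc5), and all 10 are counted below.

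The class I genes were lower in the library labelled 4T1m than in that labelled 4T1p, with intervals below 0 for all 10 in granulocytic-like cells and for all but Nlrc5 in monocytic-like cells. The share of all genes with such an interval was not counted. Small ratios can also give one at this depth, as for Csf1r in monocytic-like cells, at -0.14 (-0.21 to -0.06). In monocytic-like cells the median log2 ratio of 4T1m over 4T1p was -0.70 (from -0.94 to -0.15), while the median of all 5742 genes was 0.14. In granulocytic-like cells it was -0.97 (from -1.69 to -0.41), against 0.08 for the median of 1989 genes. No member was 2-fold lower in monocytic-like cells, where 1.22% of all genes were, but in granulocytic-like cells 5 of 10 were (H2-Q7, Tap2, Psmb8, Psmb9 and Nlrc5), where 2.51% of all genes were. Of these 5, Tap2 and Nlrc5 were under the minimum of 200 UMIs. No member was 2-fold higher in either lineage, beside 6.91% of all genes in monocytic-like and 5.03% in granulocytic-like cells.

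**Figure D1:**
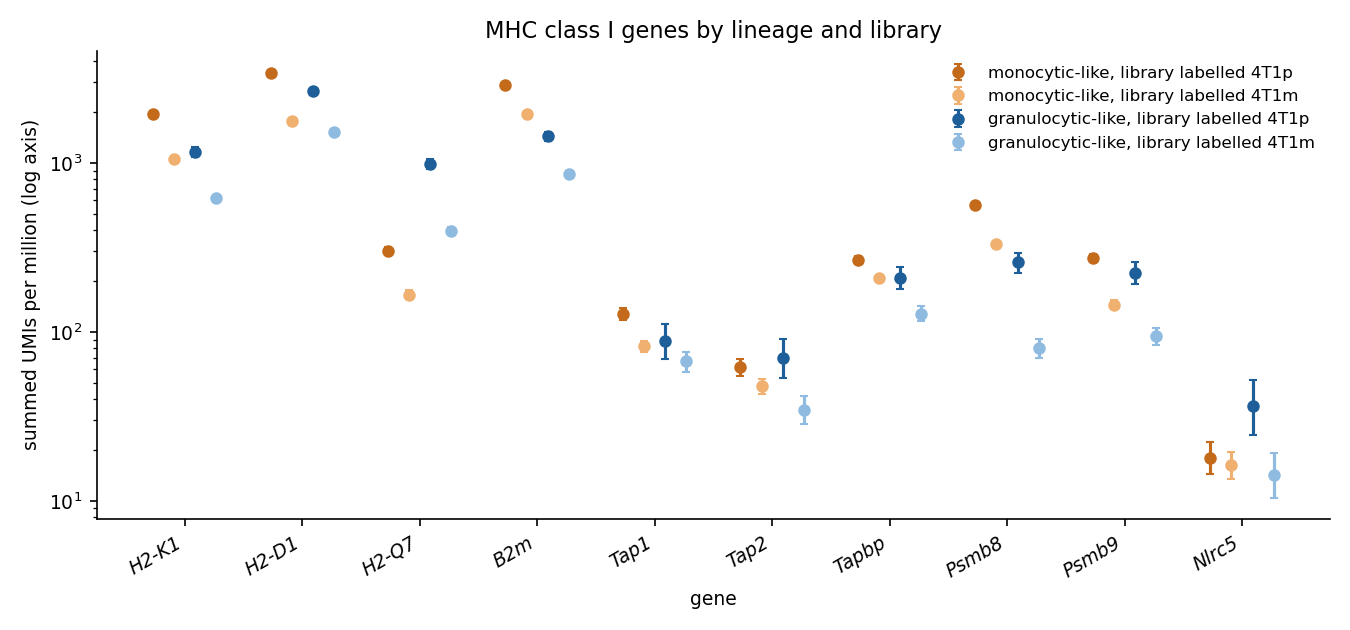
Level (CPM) of each gene on a log axis for monocytic-like and granulocytic-like cells of both libraries, with exact Poisson 95% intervals that cover counting error only. For every gene the point of the library labelled 4T1m lies below that of 4T1p within a lineage, and H2-Q7 stands higher in granulocytic-like cells.

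Among the heavy chains, H2-K1 stood at 1953 CPM (95% interval 1912 to 1993) in monocytic-like cells of the library labelled 4T1p and at 1060 CPM (1036 to 1084) in that labelled 4T1m. In granulocytic-like cells the values were 1162 CPM (1089 to 1238) and 620 CPM (592 to 648). H2-K1 was thus 1.84-fold and 1.87-fold higher under the 4T1p label in the respective lineages, with intervals that did not overlap. H2-D1, the other classical heavy chain of the reference strain, gave 3390 and 1772 CPM in monocytic-like cells and 2642 and 1524 CPM in granulocytic-like cells, in the same order of libraries. H2-Q7, a nonclassical Qa-2 heavy chain, gave 299 and 166 CPM in monocytic-like cells but 983 and 393 CPM in granulocytic-like cells. It was the only heavy chain of the 3 with a higher level in granulocytic-like cells.

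B2m, the light chain needed by every class I molecule, was at 2895 CPM (2846 to 2944) and 1946 CPM (1914 to 1979) in monocytic-like cells under the 4T1p and 4T1m labels. Its granulocytic-like levels were 1433 CPM (1353 to 1518) and 855 CPM (823 to 888). In monocytic-like cells the library difference of B2m was smaller than that of the classical heavy chains, with a log2 ratio of -0.57 (-0.61 to -0.54). In granulocytic-like cells the B2m log2 ratio was -0.74 (-0.84 to -0.64), and its interval overlapped those of both H2-K1 and H2-D1.

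Tap1, a subunit of the peptide transporter, was at 127 and 81.9 CPM in monocytic-like cells under the 4T1p and 4T1m labels, and at 88.6 and 66.7 CPM in granulocytic-like cells. For its partner subunit Tap2 the levels were 61.7 and 47.5 CPM, then 70.4 and 34.6 CPM. Tapbp, which encodes tapasin, the bridge from the transporter to the heavy chain, was at 265 and 207 CPM, then 209 and 128 CPM. In monocytic-like cells Tap2 and Tapbp had log2 ratios of -0.38 (-0.61 to -0.14) and -0.36 (-0.47 to -0.25) between the libraries, and Tap1 -0.64 (-0.81 to -0.47). In granulocytic-like cells Tap1 was the closest of the 3, at -0.41 (-0.80 to -0.0045), beside -1.02 for Tap2 and -0.71 for Tapbp.

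Psmb8, the immunoproteasome subunit LMP7, stood at 560 CPM (539 to 582) and 331 CPM (318 to 345) in monocytic-like cells of the libraries labelled 4T1p and 4T1m. In granulocytic-like cells it was at 257 CPM (224 to 294) and 79.8 CPM (70.2 to 90.3). Its log2 ratio there, -1.69 (-1.96 to -1.42), was the widest library difference of the 10 genes. The interval of this ratio overlapped those of H2-Q7, Tap2, Psmb9 and Nlrc5. Psmb9, the subunit LMP2, gave 275 and 144 CPM in monocytic-like and 223 and 94.4 CPM in granulocytic-like cells. Nlrc5 was sparse, with 83 and 117 UMIs in monocytic-like cells (17.96 and 16.2 CPM) and 30 and 45 UMIs in granulocytic-like cells (36.4 and 14.3 CPM). Its log2 ratio in monocytic-like cells, -0.15, had an interval from -0.57 to 0.28, so no difference was detectable at this depth, whereas in granulocytic-like cells it was -1.35 (-2.05 to -0.63).

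The libraries differed in the makeup of their cells, with monocytic-like cells making up 77.0% of the library labelled 4T1p and 48.5% of that labelled 4T1m, so the ratios were also taken within clusters that held at least 20 cells of each library. H2-K1, H2-D1 and Psmb9 were lower under the 4T1m label in 5 of 5 monocytic-like clusters, with every interval below 0 and log2 ratios from -1.03 to -0.24. B2m and Psmb8 had intervals below 0 in 4 of 5, H2-Q7 in 3, Tap1 and Tapbp in 1, and Tap2 and Nlrc5 in 0 of these clusters. Among the 4 granulocytic-like clusters the interval was below 0 in 4 for H2-D1, in 3 for H2-K1, B2m, Psmb8 and Psmb9, in 2 for H2-Q7, and in 1 for Tap1, Tap2, Tapbp and Nlrc5. A single interval lay above 0, that of Tap1 in the Camp-led cluster 8, with a log2 ratio of 1.72 (0.08 to 4.04). It rests on 47 UMIs under the 4T1m label and 3 under the 4T1p label. For H2-K1 the ratios nearest 0 were those of cluster 8, at -0.09 (-0.42 to 0.26), and of the low-RNA cluster 0, at -0.24 (-0.39 to -0.08). Median log2 ratios of all genes within clusters ran from -0.09 to 0.20. The share of all genes with an interval below 0 within a cluster was not counted. Small ratios can give one in deep clusters, as for Tapbp in cluster 3, at -0.17 (-0.32 to -0.015).

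**Figure D2:**
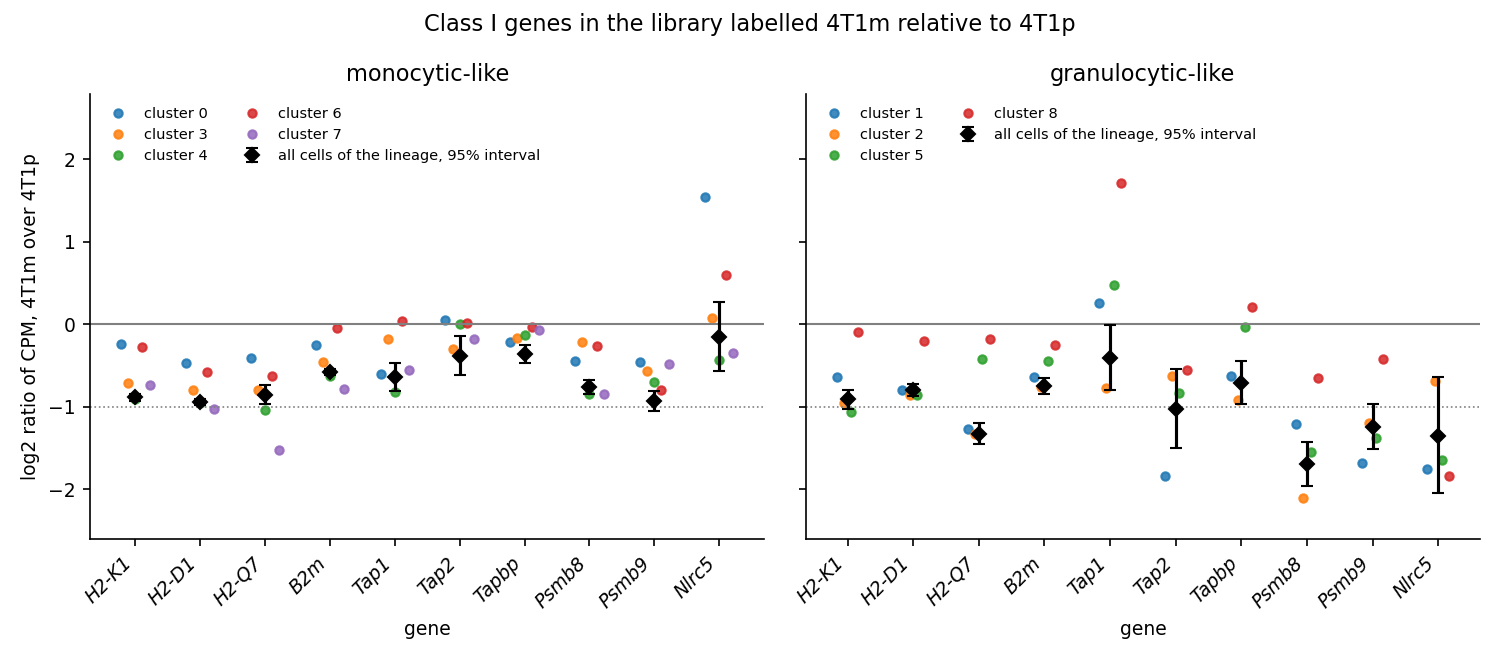
The log2 ratio of CPM of 4T1m over 4T1p for each gene, for all cells of a lineage (black, with 95% counting intervals) and for single clusters (colored points, drawn without intervals). The lineage ratios all lie below 0, and the dotted line marks a 2-fold lower level.

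Many genes of other groups were also lower under the 4T1m label, and their part in the class I values was not tested. Among the 10 type I interferon-stimulated genes, 5 had at least 200 UMIs in granulocytic-like cells, and all of those 5 were 2-fold lower under the 4T1m label (median log2 ratio -1.87), for example Isg15, a ubiquitin-like modifier, at -1.87 and Rsad2, the antiviral enzyme viperin, at -1.84. In monocytic-like cells 1 of 6 was 2-fold lower (Irf7, at -1.73), with a median of -0.46. Rsad2 was higher there under the 4T1m label, at 0.37 (0.29 to 0.45), as were Mx1 (0.97) and Cmpk2 (1.82), both under 200 UMIs. Of all genes, 2.51% in granulocytic-like and 1.22% in monocytic-like cells were 2-fold lower. Of 8 genes associated with interferon gamma, 4 of the 5 measured in granulocytic-like cells and 2 of 8 in monocytic-like cells were 2-fold lower, with medians of -1.35 and -0.44. The complement gene C1qa, a monocytic marker, had a log2 ratio of -0.93 (-0.95 to -0.90) in monocytic-like cells, and the class II genes H2-Ab1 and H2-Eb1 were at -1.03 and -1.16.

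Among other genes of the pathway, the induced proteasome genes were also lower under the 4T1m label, while 4 of the 5 loading and trimming genes were not lower in monocytic-like cells. Psmb10, the remaining catalytic subunit of the immunoproteasome, and Psme1 and Psme2, which form the PA28 cap, had log2 ratios of -0.75, -0.52 and -0.47 in monocytic-like cells. In granulocytic-like cells Psme2 was at -1.28 and Psme1 at -0.71. The standard subunits Psmb5, Psmb6 and Psmb7, which the induced ones replace, were nearer to 0 in monocytic-like cells (-0.26, -0.42 and 0.03). Calr, the lectin chaperone calreticulin, was at 0.03, Canx, the chaperone calnexin, at 0.51, Pdia3, the disulfide isomerase of the loading complex, at 0.35, and Erap1, the aminopeptidase that trims peptides, at 0.96, with Tapbpl, a homolog of tapasin, at -0.87. Of the 6 further class I and class I-like genes with at least 200 UMIs in monocytic-like cells, 3 were 2-fold lower under the 4T1m label and 0 were 2-fold higher, with H2-T22 at -1.13, H2-T23, which encodes Qa-1, at -1.11 and Fcgrt, the neonatal Fc receptor, at -1.01.

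Between lineages the members had ratios of both signs. Monocytic-like over granulocytic-like, 2 of 10 were 2-fold higher in each library (B2m and Psmb8), beside 45.8% and 48.0% of all genes under the 4T1p and 4T1m labels. With S100a8 and S100a9 left out of the totals, 0 and 1 members passed, and the share of all genes at those totals was not counted. H2-Q7 was 2-fold lower in both and Nlrc5 in that labelled 4T1p, which makes 2 and 1 of 10, beside 13.3% and 11.3% of all genes. The median log2 ratio of the members was 0.35 and 0.53, and that of all genes 0.80 and 0.91. Relative to those medians of all genes, only B2m and Psmb8 were higher in monocytic-like cells in both libraries (B2m by 0.21 and 0.27, Psmb8 by 0.32 and 1.14 on the log2 scale) and the other 8 members were lower, H2-K1 by no more than 0.14.

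H2-K1 had log2 ratios of 0.75 (0.65 to 0.85) and 0.77 (0.70 to 0.85) of monocytic-like over granulocytic-like CPM under the 4T1p and 4T1m labels, B2m 1.01 (0.93 to 1.10) and 1.19 (1.13 to 1.25), and Psmb8 1.12 (0.92 to 1.33) and 2.05 (1.87 to 2.25). H2-Q7 went the other way, at -1.72 (-1.84 to -1.59) and -1.24 (-1.36 to -1.13). The values of H2-D1 (0.36 and 0.22), Tap1 (0.52 and 0.30), Tapbp (0.35 and 0.69) and Psmb9 (0.30 and 0.61) lay between, below the median of all genes. Tap2 (-0.19 and 0.46) and Nlrc5 (-1.02 and 0.18) differed in sign between the libraries, with intervals that included 0 for Tap2 under the 4T1p label and for Nlrc5 under the 4T1m label.

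Free RNA in droplets can carry UMIs from one cell type into another, so the levels in granulocytic-like cells were set beside those of a macrophage gene. C1qa in granulocytic-like cells reached 0.0233 and 0.0350 of its monocytic-like CPM under the 4T1p and 4T1m labels. The same ratio for the members ran from 0.241 (Psmb8 under the 4T1m label) to 3.28 (H2-Q7 under the 4T1p label), above that of C1qa for all 10 genes in both libraries. C1qa was among the markers that set the lineages, so its low ratio was built in and most genes can exceed it. For all genes the median log2 ratio of monocytic-like over granulocytic-like CPM was 0.80 and 0.91. The part of free RNA in the levels of the members was not tested.

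To compare shares of cells with a UMI at equal depth, every cell was reduced at random to 1000 UMIs. Cells with fewer were left out, 304 and 243 monocytic-like and 22 and 85 granulocytic-like cells under the 4T1p and 4T1m labels. B2m was then seen in 87.6% (84.6 to 90.2) and 79.1% (76.1 to 82.0) of monocytic-like cells and in 72.9% (66.7 to 78.6) and 56.9% (53.6 to 60.1) of granulocytic-like cells. Before thinning the shares of B2m were 89.5% and 89.2%, and 90.0% and 79.0%. Psmb8 gave thinned shares of 45.2% and 30.1% against 20.1% and 5.12%. The exact binomial intervals did not overlap, with the higher share in monocytic-like cells in both libraries, for 3 of the 10 members (H2-K1, B2m and Psmb8). How many of all genes did the same was not counted, so this number does not set the members apart. H2-Q7 was seen in 20.7% and 12.3% of thinned monocytic-like cells and in 50.2% and 31.4% of granulocytic-like cells. For reference, C1qa was seen in 10.0% and 8.11% of thinned granulocytic-like cells, so shares of sparse members such as Tap1 (8.30% and 6.62%) do not by themselves mark expression.

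Across granulocytic-like states, all 10 genes had their highest level in cluster 2, led by Hdc, Irg1, Mirt1 and Il1f9, and all but Tapbp and Psmb8, which were lowest in cluster 1, had their lowest in cluster 8, led by the secondary granule genes Camp, Ngp and Ltf, when the libraries were pooled. The pooled H2-D1 levels of clusters 8 and 1 had overlapping intervals, at 1411 CPM (1345 to 1479) and 1430 (1356 to 1506). Within the library labelled 4T1m, H2-D1, Tap2 and Psmb9 were also lowest in cluster 1. Their levels in clusters 1 and 8 were 1239 and 1375, 20.3 and 25.9, and 63.4 and 81.6 CPM. The remaining members were lowest there in the same cluster as when pooled. The shares of all genes that were highest in cluster 2 or lowest in cluster 8 were not counted. All members but H2-D1 and Tapbp were at least 2-fold higher in cluster 2 than in cluster 8 (8 of 10, beside 21.0% of all genes), with a median log2 ratio of 1.41 against 0.44 for all genes. Of the 7 members with at least 200 UMIs in this pair, 5 passed. These clusters were set against each other because they held the highest and the lowest H2-K1 level of the lineage. The counts and medians of this pair, also those given further below, therefore describe that choice, for H2-K1 and for members that vary with it.

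H2-K1 stood at 406 CPM (371 to 444) in cluster 8, 583 (522 to 650) in cluster 5, led by Slc2a3 and Cxcr2, 724 (672 to 779) in cluster 1, led by Ccdc126 and Tnfrsf23, and 1142 (1082 to 1204) in cluster 2. The pooled intervals did not overlap, but within the library labelled 4T1p H2-K1 was at 1060 CPM (844 to 1314) in cluster 5 and at 1008 (876 to 1154) in cluster 1, with overlapping intervals and the order turned. H2-Q7 had the same pooled order, at 164, 351, 668 and 826 CPM, and was 5.04-fold higher in cluster 2 than in cluster 8. Its fold steps from cluster 8 to 5 and from 5 to 1 were wider than those of H2-K1, and its step from 1 to 2 was narrower. B2m was at 502, 994, 956 and 1466 CPM, where clusters 5 and 1 overlapped. For Psmb8 the order was 79.8, 122, 74.3 and 187 CPM, with clusters 8, 5 and 1 overlapping in neighboring pairs. Nlrc5 had 7 UMIs in cluster 8 (5.76 CPM, 2.31 to 11.9) and 45 in cluster 2 (37.8 CPM, 27.5 to 50.5).

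The alarmin genes S100a8 and S100a9 made up 28.2% of the UMIs of cluster 8 and 8.68% of those of cluster 2, which lowers the CPM of every other gene in cluster 8. With their UMIs left out of the totals, 5 of 10 members were at least 2-fold higher in cluster 2 (H2-K1, H2-Q7, B2m, Tap1 and Nlrc5), beside 11.9% of all genes, and the median log2 ratio was 1.06 against 0.10 for all genes. Of the 7 members with at least 200 UMIs, the minimum for that share, 3 passed. Within the library labelled 4T1p 10 of 10 members were 2-fold higher, beside 38.4% of all genes, and the medians were 1.86 and 0.69. Only 4 members had at least 200 UMIs there, and all 4 passed. Cluster 8 held 24 cells of that library, with 3 UMIs of Tap1. Within the library labelled 4T1m 6 of 10 members were 2-fold higher, beside 20.2% of all genes, and the medians were 1.14 and 0.42. Of the 5 members with at least 200 UMIs there, 3 passed.

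Across monocytic-like states, cluster 6, led by Ccl8, Cxcl9, Tmem176b and the class II gene H2-Eb1, held the highest levels of H2-K1 (2433 CPM), H2-D1 (3876), B2m (3566), Psmb8 (911) and Psmb9 (420) of all 11 clusters when the libraries were pooled, with Psmb9 overlapping cluster 7. Cluster 7 was the higher for Psmb8 within the library labelled 4T1p (959 against 950 CPM) and for Psmb9 within that labelled 4T1m (294 against 271 CPM). Cluster 3, led by Ccl5, Cx3cr1, Cxcl9 and Ifit2, held the highest levels of Tap1 (146 CPM), Tap2 (70.7) and Tapbp (310), although each of these overlapped the next cluster in order (cluster 7, led by the cell cycle genes Birc5 and Top2a, for Tap1, cluster 2 for Tap2 and cluster 6 for Tapbp). Of the 10 members, 8 thus had their highest level in a monocytic-like cluster, and H2-Q7 and Nlrc5 in granulocytic-like cluster 2. Of the 11 clusters 6 were monocytic-like, and the share of all genes that were highest in such a cluster was not counted. Within the library labelled 4T1p the count of members was 5 of 10, since Tap1, Tap2 and Tapbp were also highest in cluster 2, and within that labelled 4T1m it was 8, with Nlrc5 highest in cluster 10. Under log-normalization the pooled count was 4, with H2-K1, H2-D1, Tap1, Tap2 and Nlrc5 highest in a lymphoid-like cluster.

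The lowest monocytic-like levels of 6 genes (H2-K1, H2-Q7, B2m, Tap1, Psmb8 and Psmb9) lay in cluster 9, led by Cd163, Lyve1, Cbr2 and Mrc1, genes of resident macrophages, in the pooled libraries. The share of all genes that were lowest in cluster 9 was not counted. Of the 99 cells of cluster 9, 80 carried the 4T1m label, and within that library cluster 9 was the lowest for 5 of the 6 members, with H2-K1 at 839 CPM (776 to 907) against 852 (819 to 885) in cluster 4, while H2-Q7 was lower in cluster 7. In the pooled cluster 9 H2-K1 was at 902 CPM (842 to 964), B2m at 1576 (1497 to 1658), Psmb8 at 149 (126 to 176) and Tap1 at 42.4 (30.3 to 57.7). Of the deeply sequenced monocytic-like clusters, cluster 3 (median 13559 UMIs) had the highest and cluster 9 (median 8440) the lowest H2-K1 level. Cluster 3 was at least 2-fold higher than cluster 9 for 5 of 10 members (H2-K1, H2-Q7, Tap1, Psmb8 and Psmb9), beside 4.45% of all genes, with a median log2 ratio of 0.95 against -0.13 for all genes. Of the 9 members with at least 200 UMIs in this pair, 5 passed. Cluster 9 held 19 cells under the 4T1p label, too few to compare there, and within the library labelled 4T1m 3 of 10 members passed the fold, beside 4.79% of all genes, and the median was 0.69 against -0.01 for all genes. Of the 8 members with at least 200 UMIs in that library, 3 passed. The pair was chosen by its H2-K1 levels. These counts and medians therefore describe that choice, for H2-K1 and for members that vary with it.

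The lymphoid-like cluster 10, led by Igkc, Ebf1 and Cd79a and also holding Trbc2, had H2-K1 at 1918 CPM (1779 to 2065), H2-D1 at 2443 and B2m at 1727 CPM, with 55 of its 64 cells under the 4T1m label. Within that library its H2-K1 level, 1805 CPM (1658 to 1961), was above that of cluster 3, 1365 (1317 to 1415), although the pooled intervals overlapped.

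Clusters 0, 6 and 7 were shallow, with median UMI counts of 918, 1420 and 1553, beside 11188 in cluster 4 and 13559 in cluster 3. Cluster 0 was led by Fabp5 and Lgals1 and none of its 10 leading genes was a monocytic marker, as also in clusters 3, 4 and 7. Its place among monocytic-like cells rests on marker shares alone, as does the lineage of every cluster. Cluster 6 was also unevenly split, with 198 cells under the 4T1p label and 67 under the 4T1m label, and its H2-K1 log2 ratio between the libraries was -0.27 (-0.46 to -0.09).

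**Figure D3:**
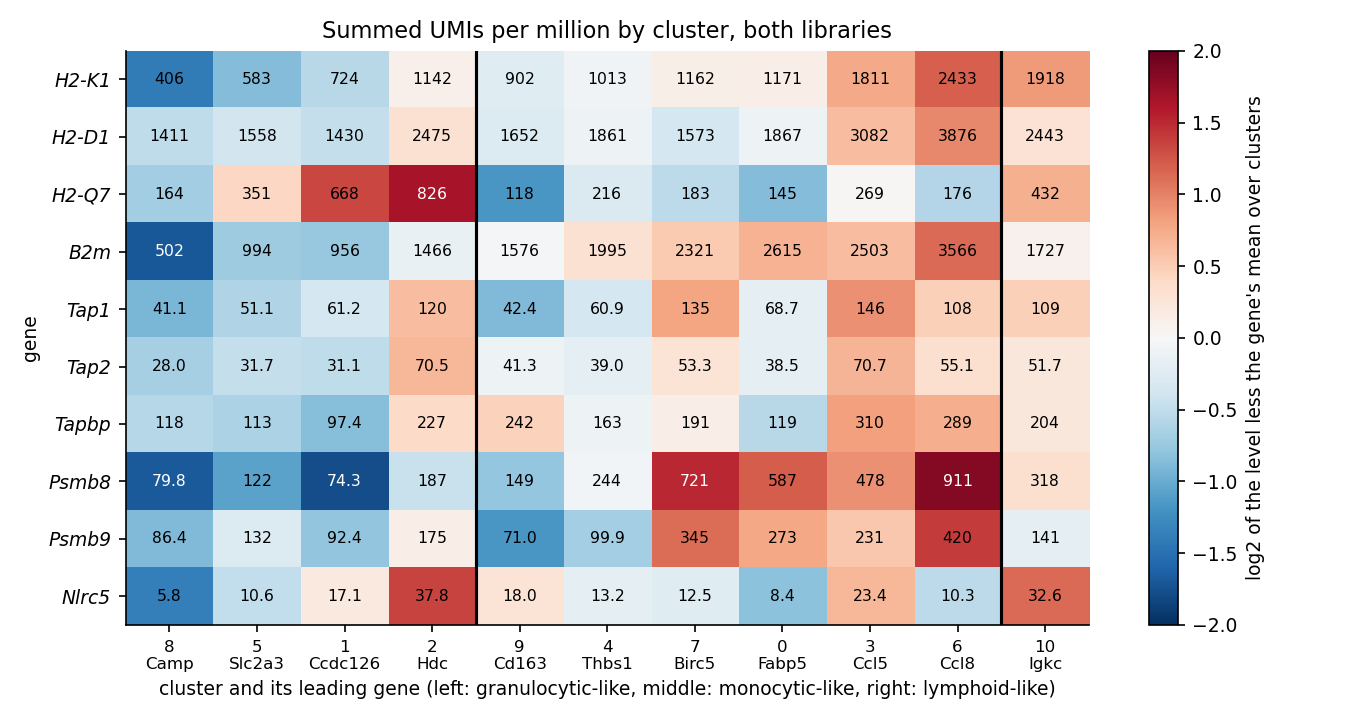
Levels of the 10 genes in the 11 clusters, as CPM (printed) and as the log2 of that level less the gene's mean over clusters (color). All 10 genes are warmest in cluster 2 among the granulocytic-like clusters, and H2-Q7 and Nlrc5 are highest in cluster 2 while H2-K1, H2-D1, B2m, Psmb8 and Psmb9 are highest in cluster 6.

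The makeup of the heavy chain transcripts differed between lineages. H2-Q7 gave 5.31% (5.04 to 5.59) and 5.54% (5.24 to 5.85) of the UMIs of the 3 heavy chains in monocytic-like cells of the libraries labelled 4T1p and 4T1m. In granulocytic-like cells it gave 20.5% (19.3 to 21.8) and 15.5% (14.7 to 16.3). By cluster the share ran from 2.71% (2.21 to 3.28) in cluster 6 to 23.7% (22.1 to 25.3) in cluster 1, and it was 8.26% in cluster 8 and 14.1% in cluster 5. These are shares of 3′ UMIs, not scaled per length, and the total UMIs of a group cancel in them.

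Counts of class I heavy chains carry an uncertainty of assignment. BALB/c mice carry the d haplotype of the MHC with a further classical heavy chain, H2-L, whereas the reads were aligned to the C57BL/6 reference of haplotype b. The last 500 bases of the reference transcripts of H2-Q7 aligned to H2-K1 over 376 bases at 84.1% identity, and those of H2-D1 to H2-K1 over 179 bases at 90.6%. To H2-Q6, a further gene of the Q region, the last 500 bases of H2-Q7 aligned over 132 bases at 88.9%. H2-Q6 did not share the granulocytic-like level of H2-Q7: its log2 ratio of monocytic-like over granulocytic-like CPM was 0.16 (-0.17 to 0.50) and 1.11 (0.83 to 1.41) under the 4T1p and 4T1m labels. Summed with H2-Q6, H2-Q7 was no longer 2-fold lower in monocytic-like cells under the 4T1m label. H2-Q4, another gene of the Q region, was at -1.04 and -0.23.

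Induced subunits supplied most of the UMIs in their pairs for Psmb8 but not uniformly for the others. Psmb8 made up 76.6% (75.2 to 78.1) and 69.9% (68.4 to 71.5) of the UMIs of Psmb8 and its standard counterpart Psmb5 in monocytic-like cells under the 4T1p and 4T1m labels, and 83.8% (78.7 to 88.1) and 67.1% (62.1 to 71.9) in granulocytic-like cells. Psmb9 made up 53.0% and 44.2% of Psmb9 and Psmb6 in monocytic-like cells but 80.7% and 70.9% in granulocytic-like cells. For Psmb10 and Psmb7 the direction was opposite, with Psmb10 at 68.2% and 55.5% in monocytic-like and 50.9% and 30.7% in granulocytic-like cells, although the granulocytic-like value under the 4T1p label rests on 108 UMIs (41.1 to 60.7). In every one of these 6 comparisons the share was lower under the 4T1m label, and the intervals of the libraries were apart in all but that of Psmb9 in granulocytic-like cells. Within clusters the share was lower under the 4T1m label in 5 of 5 monocytic-like and 3 of 4 granulocytic-like clusters for Psmb8, in 3 and 4 for Psmb9 and in 4 and 3 for Psmb10. The intervals were apart in few of these, in 1 monocytic-like cluster for each pair and in 1 granulocytic-like cluster for Psmb8, and in 0 clusters with the higher share under the 4T1m label.

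**Figure D4:**
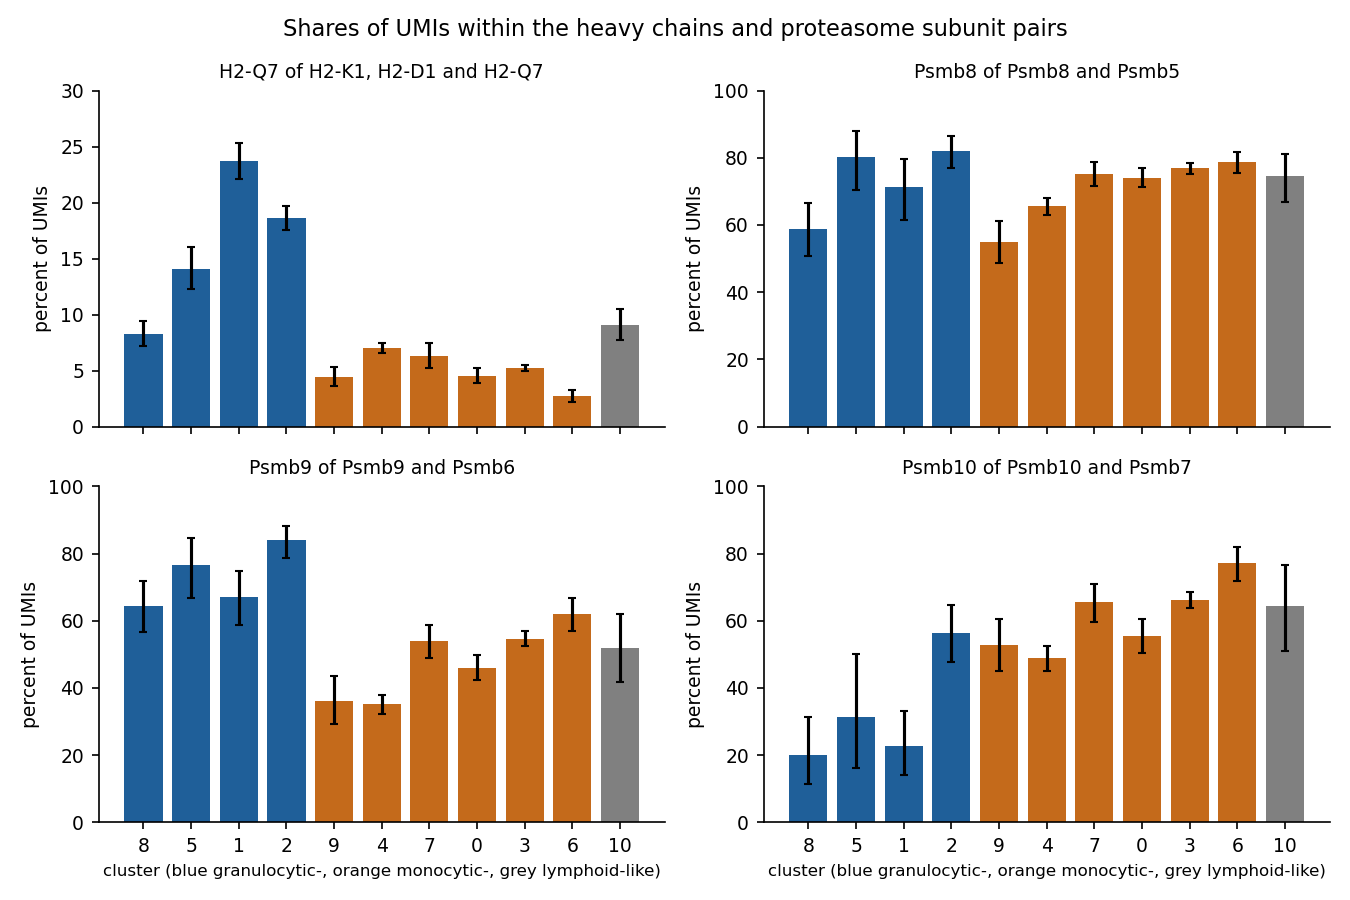
Percent of UMIs from H2-Q7 among the 3 heavy chains, and from each induced proteasome subunit among its pair with the standard subunit, in each cluster with exact binomial 95% intervals. H2-Q7 reaches 23.7% in cluster 1 and stays below 10% in all monocytic-like clusters. The share of Psmb9 is above 60% in every granulocytic-like cluster and in monocytic-like cluster 6 (61.9%).

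Class I levels were also read by the number of 10 type I interferon-stimulated genes (Ifit1, Ifit2, Ifit3, Isg15, Rsad2, Irf7, Usp18, Oasl2, Mx1 and Cmpk2) that a cell showed after thinning to 1000 UMIs, a grouping chosen after the data were seen. Under the 4T1p label 26.2% of thinned granulocytic-like cells showed 3 or more of these genes and 27.1% showed 0, while under the 4T1m label the shares were 5.34% and 59.2%. In monocytic-like cells 8.87% and 6.61% showed 3 or more.

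In granulocytic-like cells 8 of 10 members were at least 2-fold higher in cells with 3 or more of these genes than in cells with 0, in each library, beside 13.5% of all genes under the 4T1p label and 3.45% under the 4T1m label. Those shares cover genes with at least 200 UMIs, a minimum met by 4 and 5 members, of which 3 and 4 passed. Median log2 ratios of the members were 1.42 and 1.23, against 0.31 and 0.06 for all genes. H2-K1 went from 643 CPM (550 to 749) through 1293 (1179 to 1415) to 1644 (1462 to 1841) with 0, with 1 to 2 and with 3 or more genes seen under the 4T1p label, and from 485 (454 to 517) through 776 (723 to 831) to 1121 (963 to 1298) under the 4T1m label. Tap1 was 26.97, 101 and 154 CPM, and 45.6, 84.5 and 182 CPM. The members under 2-fold were H2-Q7 and Tap2 under the 4T1p label and H2-D1 and Psmb8 under the 4T1m label.

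Monocytic-like cells showed smaller steps, and 1 of 10 members under the 4T1p label (Nlrc5, from 22 and 22 UMIs) and 3 of 10 under the 4T1m label (Tap1, Tapbp and Nlrc5) passed the fold, beside 2.30% and 2.57% of all genes. Of the 8 members that met the minimum in each library, 0 and 2 passed. B2m had nearly equal levels in the groups under the 4T1p label, at 2872, 2934 and 2871 CPM, a log2 ratio of 0.00 with an interval from -0.08 to 0.08. Psmb8 had a log2 ratio of -0.15 (-0.35 to 0.04) under the 4T1p label and 0.69 (0.48 to 0.89) under the 4T1m label. Median UMI counts also differed between these groups in monocytic-like cells, from 2823 to 11662 under the 4T1p label and from 6707 to 11357 under the 4T1m label, whereas in granulocytic-like cells they ran from 2593 to 3094, and the part of depth was not tested.

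The library difference was present within the groups for H2-K1. Among granulocytic-like cells with 0 interferon-stimulated genes seen, H2-K1 was at 643 CPM (550 to 749) under the 4T1p label and 485 (454 to 517) under the 4T1m label, and Psmb8 at 131 (90.7 to 183) and 61.0 (50.4 to 73.2). B2m in the same cells was at 759 (657 to 873) and 700 (663 to 739), with overlapping intervals. Tap1 and Tapbp were higher there under the 4T1m label, with overlapping intervals. Tap1 was at 26.97 (10.8 to 55.6) and 45.6 (36.5 to 56.3) under the 4T1p and 4T1m labels. Tapbp was at 77.1 (47.1 to 119) and 97.1 (83.5 to 112). In cells with 3 or more genes seen, H2-K1, H2-D1, H2-Q7, B2m and Psmb8 had intervals that did not overlap between the libraries, while those of the other 5 members did. Of those 5, Tap1 was higher under the 4T1m label, at 182 against 154 CPM. The share of all genes with intervals apart in these cells was not counted.

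**Figure D5:**
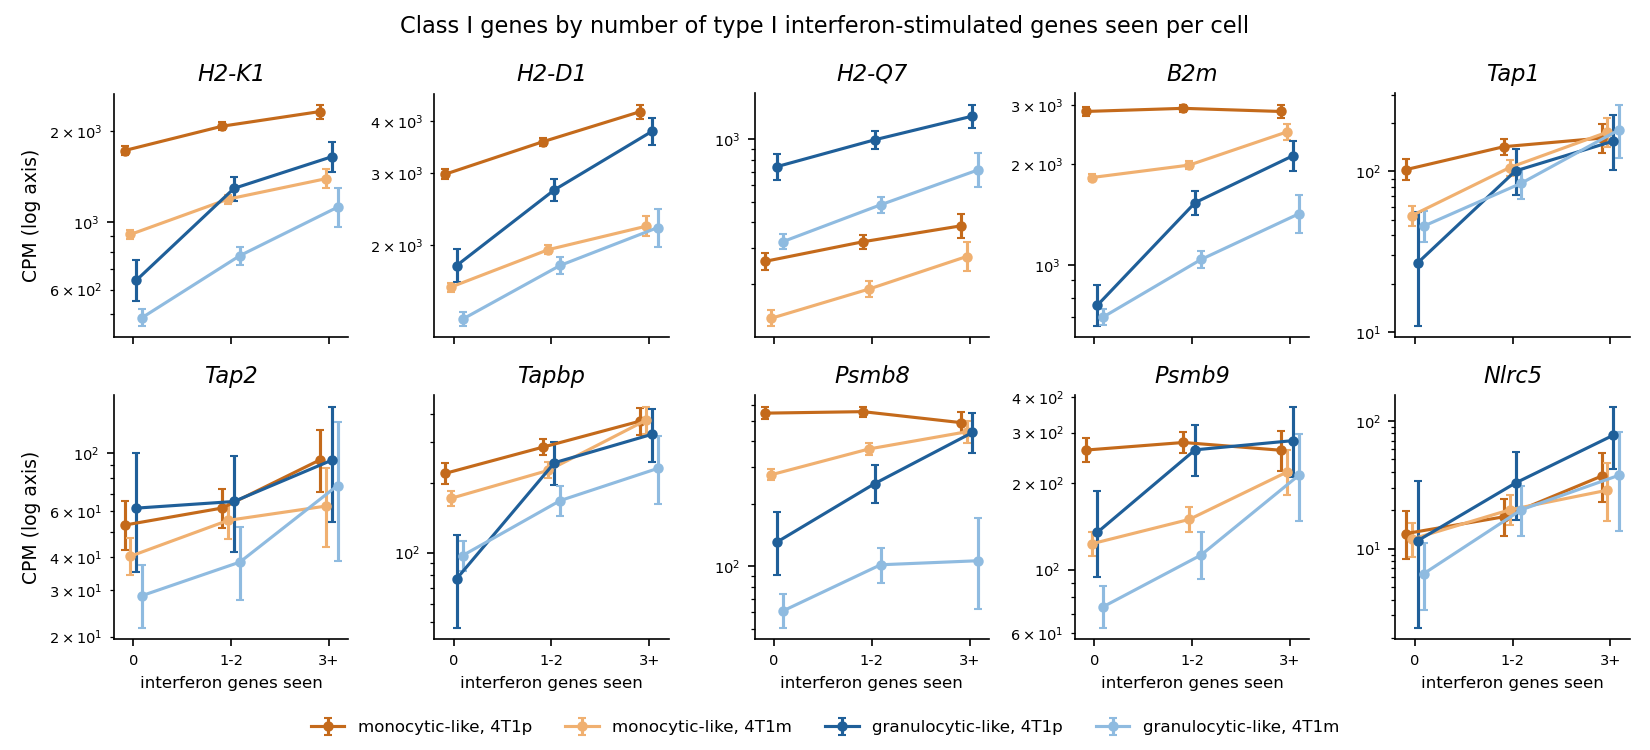
Levels of each gene (CPM, log axes that differ between panels) by the number of type I interferon-stimulated genes seen per thinned cell, for both lineages and libraries with exact Poisson 95% intervals. The granulocytic-like lines climb in all panels, and the monocytic-like lines of the library labelled 4T1p are flat for B2m, Psmb8 and Psmb9.

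Regulators and receptors of the pathway did not all follow the members. Irf1, an interferon-induced activator of class I genes, was lower in monocytic-like than in granulocytic-like cells (log2 ratio -1.97 and -1.25 under the 4T1p and 4T1m labels), as was Jak1, the kinase shared by interferon receptors (-0.84 and -0.90). The receptor gene Ifngr2 was higher (1.26 and 0.55). Over the genes of this list with at least 200 UMIs, the median log2 ratio was -0.37 and -0.46. Between the libraries, Irf1 was at -0.997 in granulocytic-like cells (4T1m over 4T1p), beside a median of -0.97 for the members. The receptor genes Ifngr1, Ifngr2 and Ifnar1 were higher there under the 4T1m label, at 0.79, 0.73 and 0.59. Of the 13 regulators and receptors, 9 had at least 200 UMIs there, of which 0 were 2-fold higher or lower.

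Over the 20 groups of 1 cluster and 1 library with at least 20 cells, and among 6372 genes with at least 200 UMIs, the genes most like H2-K1 by Pearson r of log2(CPM + 10) were Ly6e (0.87), Bst2 (0.86), Scimp (0.83), Psmb10 (0.83) and H2-Eb1 (0.83). Those most like B2m were Gngt2 (0.94), Bst2 (0.94), Psmb10 (0.93), Psme1 (0.92) and Acp5 (0.91), and those most like Psmb8 were AW112010 (0.95), Psme2 (0.94), Psme1 (0.94), H2-T22 (0.94) and Psmb10 (0.94). The 5 genes most like Tap1 included Gbp3 (0.86), Psen2 (0.82), Gbp9 (0.81) and Tor3a (0.80). Nlrc5 was most like Socs1 (0.82), H2-Q4 (0.82), Slfn8 (0.77), Trim26 (0.75) and Mysm1 (0.73), on few UMIs. Among the members, H2-Q7 stood apart, with r of 0.13 to H2-K1, 0.35 to H2-D1 and -0.26 to Psmb8, and its closest member was Nlrc5 (0.73). These correlations describe groups that share libraries and lineages.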

How the data were processed

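The authors deposited unnormalized UMI counts for every gene in every called barcode, made with Cell Ranger on mm10 (GRCm38) per the submitters' processing notes, from 10x Genomics 3′ v3 libraries. The library totals set the depth, and the intervals cover counting error only. The ribosomal RNA genes Gm42418 and AY036118 were left out, and no Ptprc filter or doublet removal was applied. Both libraries were merged and normalized with SCTransform (3000 variable genes less the class I genes, mt- share regressed out), then clustered on 11 principal components with Louvain at resolution 0.8. A cluster in which 2 or more of 3 B cell or T cell markers were each seen in 25% of cells or more was called lymphoid-like, and any other took the lineage with the higher mean relative marker share. Alternatives were other filters, normalizations, resolutions, totals, weights and folds, and a total without S100a8 and S100a9 was added after the data were seen. Named genes are the members, the genes of 7 lists and, for 5 members, the 5 most alike genes, of which some are not reported here. The members and lists were chosen with earlier results of these data known, and the pairs of clusters and the interferon grouping after seeing the values. Gene places came from GENCODE vM21 and promoters from RefSeq. Software was R 4.3.3 with Seurat 5.3.0, sctransform 0.4.2 and Matrix 1.6.5, and Python 3.11.15 with scanpy 1.11.5 (Scrublet), Biopython 1.88, pandas 2.3.3, matplotlib 3.10.9, scipy 1.17.1 and numpy 2.4.6. Intervals were tested on simulated data.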

Additional observations from a re-analysis of the deposited data

Results flagged for a closer look

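Barcodes outside the cell filters, which no main comparison used, also held the 10 genes. Those over the limits on UMIs or genes entered only the alternative with no upper limits. Summed, the 10 genes made up 4294 CPM in the 443 barcodes over the mt- limit of the library labelled 4T1p and 3337 CPM in the 560 of that labelled 4T1m, beside 9441 and 5222 CPM in the kept cells. The 57 and 58 barcodes over the limits on UMIs or genes held 9815 and 4909 CPM. The sum was lower under the 4T1m label in each of these sets.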

How the results depend on the processing

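No paired analysis was possible because each condition has 1 library. The 10 members kept a ratio below 0 between the libraries under all 17 alternatives in both lineages, except Nlrc5 in monocytic-like cells, which was above 0 under 2 (up to 0.55). Of these alternatives, the log2 fold of 0.5 cannot change a ratio, and summing H2-Q6 and H2-Q7 can change only that of H2-Q7. In the library and lineage comparisons, shares of all genes past the fold were not counted under the alternatives. The counts of members past the fold given below therefore do not set the members apart. The count of 2-fold lower members in monocytic-like cells (0) became 1 with at most 5% mt- UMIs or no upper limits, 3 after centring on the median of all genes and 7 at a log2 fold of 0.5, and in granulocytic-like cells (5) it became 9 at a log2 fold of 0.5. In granulocytic-like cells Tap2 was no longer 2-fold lower under 6 of the 17 alternatives and Nlrc5 under 2. H2-K1 and H2-D1 each became 2-fold lower there under 1 alternative. Monocytic-like over granulocytic-like under the 4T1p label, 2 higher members became 4 at a log2 fold of 0.5, 1 with log-normalization or a mean over cells, and 0 with median-centring, no upper limits or without S100a8 and S100a9 in the total. The 2 lower members became 1 with a required Ptprc UMI, at least 500 genes, at least 1000 UMIs, log-normalization, no upper limits or a total without mt- and ribosomal protein genes. Under the 4T1m label, 2 higher members became 5 at a log2 fold of 0.5 and 1 with median-centring, no upper limits or without S100a8 and S100a9, and 1 lower member became 0 with at most 5% mt- UMIs or with H2-Q6 and H2-Q7 summed. Centring turned the sign of the lineage ratio of H2-K1, H2-D1, Tap1, Tapbp and Psmb9 in both libraries and of Tap2 and Nlrc5 under the 4T1m label. The 8 members highest in a monocytic-like cluster became 4 with a required Ptprc UMI or log-normalization and 5 with at least 1000 UMIs, at least 500 genes, class I genes kept for clustering, no upper limits or resolution 1.2. In these 7 settings 3 to 5 members were highest in a lymphoid-like cluster. Sparse genes such as Nlrc5, with 30 to 117 UMIs per lineage and library, allow no finer statement.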
